A study of Mus musculus with 13 samples.

Results

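The Iroquois genes Irx1 to Irx6 were examined through the H3K27me3 peaks called around them in mouse embryonic fibroblasts that express a mutant histone H3. The 6 genes form 2 clusters of 3, and the members were all peaks of either deposited list that overlap a fixed mm9 window around each cluster. The first window, chromosome 8 from 94200001 to 95300000, is the one for Irx3, Irx5 and Irx6. The second, chromosome 13 from 71800001 to 73700000, is the one for Irx1, Irx2 and Irx4. They held 5 of the 1192 peaks in the H3.3K27M list and 5 of the 1053 peaks in the H3.1K27M list. Joined by overlap, these 10 peaks made up 6 of the 1383 regions in the series.

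The compared groups were fibroblasts with stable lentiviral expression of H3.3K27M and fibroblasts with stable lentiviral expression of H3.1K27M. In both, lysine 27 of the introduced histone is changed to methionine. H3.3 is incorporated throughout the cell cycle, while H3.1 is incorporated mainly at DNA replication. All cells carried a mutant histone, and no control cells entered the comparison, so the values compare one mutant with the other and not with unmodified fibroblasts. The promoter of the transgene is not given in these sources. Formaldehyde-fixed chromatin was digested by micrococcal nuclease to mononucleosomes, and an antibody against H3K27me3 was used for the precipitation. Each group has 2 replicate samples in the labels but 1 peak list, so no value below has a spread between replicates, and no test between the mutants was possible. Peaks carry a position and a width but no height, and the depth behind them is unknown. Peak widths grow with read depth and with a looser calling threshold, so they were not read as amounts of H3K27me3. No expression was measured in these files, and the fibroblast label could not be checked against markers.

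Iroquois genes encode transcription factors with a homeodomain of the TALE class, and they pattern organs and tissues along body axes. In mammals they lie in a pair of clusters that arose by duplication. H3K27me3 is the mark placed by Polycomb repressive complex 2 (PRC2). It typically covers developmental transcription factor genes in cells that keep them silent, and the domains usually centre on stretches rich in the dinucleotide CG. The K27M form of H3 is known to inhibit PRC2. Among the members, mouse Irx3 acts in the fast conduction system of the heart and, with Irx5, in early limb patterning. Irx5 also sets the gradient of repolarisation across the ventricular wall in mouse heart. Irx6 is expressed in retinal bipolar cells. Irx4 is a ventricular gene of the heart, and chick Irx2 takes part in formation of the cerebellum.

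In the RefSeq gene table, the members follow each other along chromosome 8 as Irx3, Irx5 and Irx6, and along chromosome 13 as Irx1, Irx2 and Irx4. No protein-coding gene separates members of a cluster. Between Irx3 and Irx5 the table lists 7 long noncoding RNA genes, among them Irx3os and Crnde, and between Irx5 and Irx6 it lists none. There are 3 such genes between Irx1 and Irx2, and 5 between Irx2 and Irx4. Past Irx6 the next protein-coding genes are Mmp2, a matrix metalloproteinase, then Lpcat2, Capns2 and Slc6a2, the noradrenaline transporter. Past Irx4 come Ndufs6 and Mrpl36, which encode mitochondrial proteins, then Lpcat1 and Slc6a3, the dopamine transporter. Both clusters are thus followed by an Lpcat gene and an Slc6a gene. The table describes a later assembly than the one the peaks are on, so it gave names and order only. No peak was assigned to a single gene, so a peak in a window may lie at a neighbouring gene. Below, an Iroquois peak or region is one that overlaps a window, whichever gene it lies at.

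Promoters of the members are shown because CG-rich sequence is where PRC2 marks are usually centred. RefSeq promoter sequences matched 3 of the 6 members: Irx3, Irx2 and Irx4. Irx1, Irx5 and Irx6 had no entry. The 250 bases before each gene start follow, 5′ to 3′ on the strand of the gene, with every CG dinucleotide in capitals. Their coordinates are those of GRCm38.p6 and cannot be set against the mm9 positions of the peaks, so only the spacing between promoters is used below.
Irx3 (chr8:91801655-91801904, - strand, GRCm38.p6): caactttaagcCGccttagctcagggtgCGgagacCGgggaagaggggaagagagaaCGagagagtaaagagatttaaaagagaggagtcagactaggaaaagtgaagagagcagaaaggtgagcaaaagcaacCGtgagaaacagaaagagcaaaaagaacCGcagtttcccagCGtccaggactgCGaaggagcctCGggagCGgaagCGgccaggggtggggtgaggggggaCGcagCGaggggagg
Irx2 (chr13:72628570-72628819, + strand, GRCm38.p6): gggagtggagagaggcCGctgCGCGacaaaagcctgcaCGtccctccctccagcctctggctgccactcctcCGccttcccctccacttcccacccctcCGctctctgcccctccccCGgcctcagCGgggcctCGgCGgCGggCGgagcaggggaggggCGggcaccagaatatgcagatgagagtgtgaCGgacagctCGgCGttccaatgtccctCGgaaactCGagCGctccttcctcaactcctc
Irx4 (chr13:73260247-73260496, + strand, GRCm38.p6): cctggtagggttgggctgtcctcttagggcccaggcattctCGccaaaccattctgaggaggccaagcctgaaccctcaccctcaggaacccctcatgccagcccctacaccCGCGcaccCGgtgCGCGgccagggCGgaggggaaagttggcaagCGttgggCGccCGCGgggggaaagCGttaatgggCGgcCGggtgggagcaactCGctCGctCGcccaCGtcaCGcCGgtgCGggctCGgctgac

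All 3 promoters were richer in CG than the median promoter. The Irx3 sequence held 13 CG dinucleotides in 250 bases, the Irx2 sequence 19 and the Irx4 sequence 22, against a median of 6 over the 32851 promoter sequences in the table. At least 1 CG, a motif that reads the same on both strands, occurred in 92.1% of those sequences. At least as many CG as at Irx3 were found in 31.5% of them, at least as many as at Irx2 in 19.7%, and at least as many as at Irx4 in 14.8%. The G and C content was 56.0% at Irx3, 68.4% at Irx2 and 68.8% at Irx4, against a median of 52.4%. The Irx3 sequence thus had the fewest CG of the members shown. These counts describe the sequence only.

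Both mutants carried H3K27me3 in both Iroquois windows. On chromosome 8 there were 3 peaks in H3.3K27M cells and 3 in H3.1K27M cells. On chromosome 13 there were 2 peaks in H3.3K27M cells and 2 in H3.1K27M cells. The covered length was 58.6 kb in H3.3K27M cells and 40.4 kb in H3.1K27M cells, a ratio of 1.45, beside a ratio of 1.36 over all peaks of the lists. Most of the difference in covered length was on chromosome 8, with 35.2 kb in H3.3K27M cells and 19.997 kb in H3.1K27M cells (ratio 1.76). On chromosome 13 the lengths were 23.4 kb in H3.3K27M cells and 20.4 kb in H3.1K27M cells (ratio 1.15). Over the whole of the same chromosomes the order was the other way round, with a ratio of 1.08 on chromosome 8 and 1.51 on chromosome 13. The chromosome 8 lengths, and so the totals, include an H3.3K27M peak of 12.8 kb and an H3.1K27M peak of 2.40 kb that overlap no peak of the other list. In regions with a peak of each list the width ratios were 1.14 and 1.53 on chromosome 8. They were 1.11 and 1.38 on chromosome 13. The Iroquois ratios of covered length thus depend on the unmatched H3.3K27M peak.

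**Figure D1:**
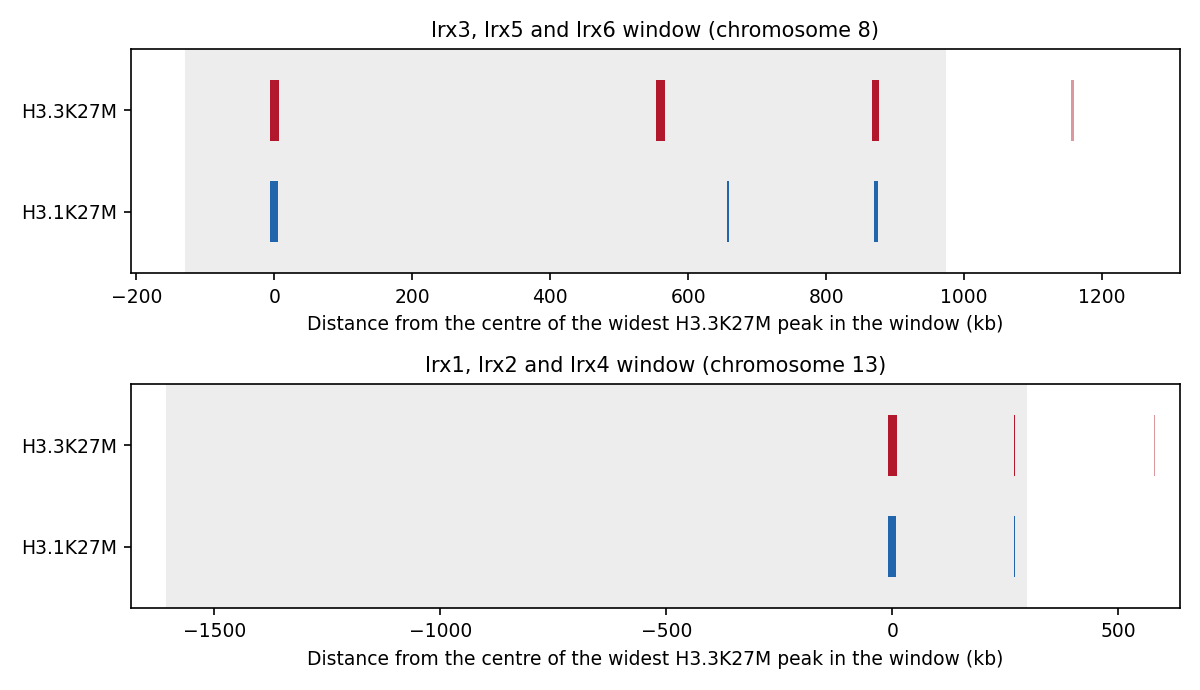
Positions of H3K27me3 peaks in the Irx3, Irx5 and Irx6 window (top) and the Irx1, Irx2 and Irx4 window (bottom), in kb from the centre of the widest H3.3K27M peak of each window. Bars are peaks drawn to scale, with H3.3K27M above H3.1K27M, and grey areas are the windows. Pale bars are the nearest H3.3K27M peaks past the right edges. The nearest H3.1K27M peaks on the right, and the nearest peaks of both lists on the left, lie beyond the axes. The peaks are spread over the chromosome 8 window but confined to the right-hand end of the chromosome 13 window in both lists.

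On chromosome 8 the peaks lay far apart and spanned most of the window. The first region ran from 94320801 to 94333999 on mm9. Its H3.3K27M peak was 13.2 kb wide and its H3.1K27M peak 11.6 kb wide, and both began at the same base. A start at the same base was found in 71 of the 807 regions of the series that hold 1 peak of each list (8.8%). Starts in both lists fall on a 200 bp grid, so equal starts mean the same step of that grid. On the right the H3.3K27M peak reached 1.6 kb further.

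The middle of the chromosome 8 window was where the mutants differed in the presence of a peak. The second region, from 94880401 to 94893199, held an H3.3K27M peak of 12.8 kb and no H3.1K27M peak. Region 3, from 94983801 to 94986199, held an H3.1K27M peak of 2.40 kb and no H3.3K27M peak. These unmatched peaks lay 90.6 kb from each other, and each was the nearest peak of the other list to its counterpart. The H3.3K27M peak was a broad one for its kind: of the 354 H3.3K27M peaks without a partner, whose median width was 5.00 kb, 16 (4.52%) were at least as wide. The H3.1K27M peak was narrow, against a median of 3.20 kb over the 198 H3.1K27M peaks without a partner, of which 67 (33.8%) were no wider. An H3.1K27M region without a partner had an H3.3K27M region without a partner as its nearest region, within 100 kb, in 4 of 198 cases (2.02%), the Iroquois one included. At any distance this was so in 32 of 198 cases (16.2%). This spacing, and the limit of 100 kb, were chosen after the positions were seen. Running peak numbers of both lists were used without a break on each side of every Iroquois peak, although 55 numbers of the H3.3K27M list and 26 of the H3.1K27M list are unused elsewhere.

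The fourth region of chromosome 8, from 95194401 to 95203599, was shared and had the largest width difference of the shared Iroquois regions. The H3.3K27M peak was 9.20 kb wide and the H3.1K27M peak 6.0 kb, a ratio of 1.53. The H3.3K27M peak began 2.60 kb earlier and ended 0.60 kb later. From the first region to the fourth the peaks spanned 882.8 kb, and the regions were separated by 546.4, 90.6 and 208.2 kb.

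On chromosome 13 the mutants had the same layout. The first region, from 73394201 to 73413999, held the broadest peaks of either Iroquois window. The H3.3K27M peak was 19.8 kb wide and the H3.1K27M peak 17.8 kb, a ratio of 1.11. The H3.3K27M peak extended 0.80 kb further on the left and 1.20 kb further on the right. The second region, 258.2 kb away and running from 73672201 to 73675799, held the narrowest shared pair, with 3.60 kb in H3.3K27M cells and 2.60 kb in H3.1K27M cells. Here the ratio was 1.38, with extensions of 0.40 kb on the left and 0.60 kb on the right.

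**Figure D2:**
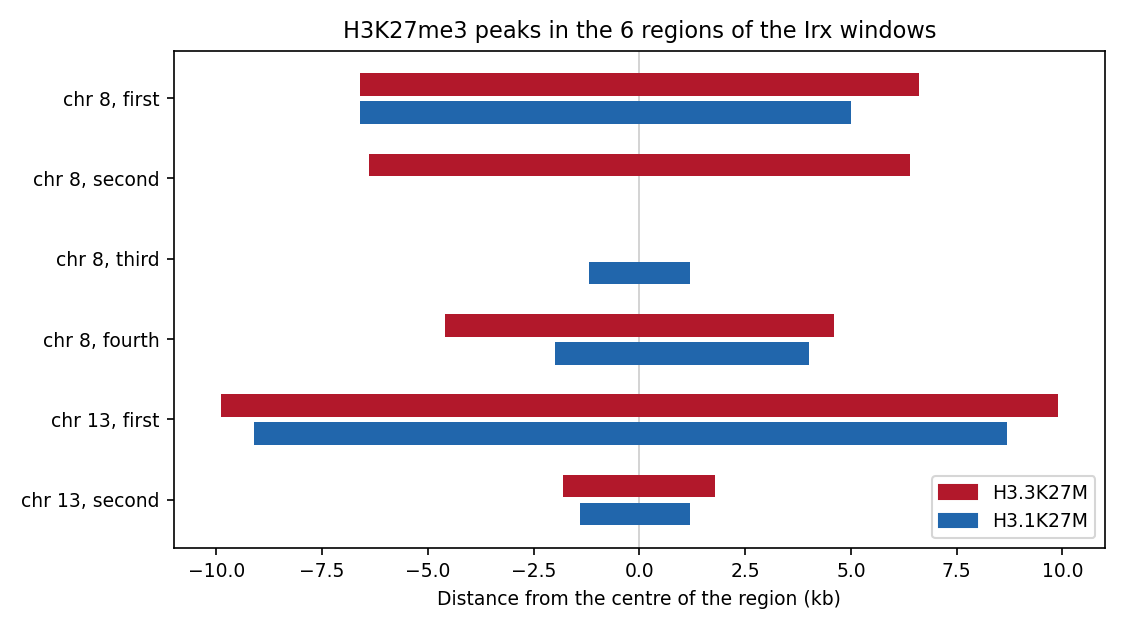
H3K27me3 peaks of the 6 regions in the Irx windows, drawn to scale in kb from the centre of each region, with the H3.3K27M peak above the H3.1K27M peak. In the 4 shared regions the H3.1K27M peak lies inside the H3.3K27M peak or shares its left edge, and regions 2 and 3 of chromosome 8 have a peak of 1 list each.

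A long part of the chromosome 13 window held no peak of either list. From its left edge, 1.59 Mb of the 1.9 Mb window (83.9%) was empty in both mutants. Further left, the next region of either list ended 3.51 Mb before the first Iroquois region. Gaps of at least this length made up 198 of the 1363 gaps between neighbouring regions of the series (14.5%), and 11 of 51 on chromosome 13 (21.6%). Gene positions on mm9 were not used here, so which of Irx1, Irx2 and Irx4 lie in the empty part was not read directly. The GRCm38.p6 promoter sequences begin at 72628570 for Irx2 and at 73260247 for Irx4, both on the + strand. This spacing is longer than the rest of the window, from the first region at 73394201 to the right edge at 73700000. If it holds on mm9 and the window holds all members, Irx2 starts in the empty part. So, then, does Irx1, which precedes Irx2 in gene order. The place of Irx4 was not determined. The absence of a peak says only that none was called at the depth and threshold used.

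The clusters also differed in how the peaks were spaced. In H3.3K27M cells the outermost peaks spanned 882.8 kb on chromosome 8 and 281.6 kb on chromosome 13. In H3.1K27M cells they spanned 882.2 kb on chromosome 8 and 280.2 kb on chromosome 13. Peaks lay at 2.73 per Mb in the chromosome 8 window and 1.05 per Mb in the chromosome 13 window, in each mutant. These are 3 peaks in 1.1 Mb and 2 peaks in 1.9 Mb, so the values depend on the lengths set for the windows. The densities over the autosomes and the X chromosome were 0.452 per Mb in H3.3K27M cells and 0.399 in H3.1K27M cells.

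Set against tiles of the same length laid along the genome, the chromosome 8 window was among the fuller ones. At least 3 peaks were found in 4.98% of 2389 such tiles in the H3.3K27M list and in 4.4% in the H3.1K27M list, while 69.9% of tiles held no H3.3K27M peak and 74% no H3.1K27M peak. At least 2 peaks, the number in the chromosome 13 window, were found in 21% of 1378 tiles of its length in the H3.3K27M list and in 18% in the H3.1K27M list, while 58.7% held no H3.3K27M peak and 63.1% no H3.1K27M peak. In steps of 100 kb, 7 of the 30 bins of both windows held a peak in H3.3K27M cells and 7 of 30 in H3.1K27M cells (23.3% each). Over the genome 4.42% of bins held a peak in H3.3K27M cells and 3.8% in H3.1K27M cells. The 7 bins of each list hold only 5 peaks, because a peak that crosses a bin edge counts in every bin it touches. Genome-wide, 1192 H3.3K27M peaks fell in 1168 bins and 1053 H3.1K27M peaks in 1002. The place of the bin edges thus adds to the Iroquois share. Iroquois loci are known Polycomb targets and were chosen with earlier results in view, so these figures are a description and not a test.

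Most of the Iroquois peaks of each mutant had a partner in the other. In H3.3K27M cells 4 of 5 peaks overlapped an H3.1K27M peak by at least 1 bp (80%, exact 95% binomial interval 28.4 to 99.5%), beside 70.3% of all H3.3K27M peaks. In H3.1K27M cells 4 of 5 peaks overlapped an H3.3K27M peak (80%, with the same interval), beside 81.2% of all H3.1K27M peaks. Both list-wide shares lie inside the interval, which covers counting error only and at 5 peaks is too wide to tell the shares apart. The interval treats the 5 peaks of a list as independent, and both Iroquois shares count the same 4 shared regions. By length, 64.8% of what was covered in H3.3K27M cells was also covered in H3.1K27M cells, and 94.1% of what was covered in H3.1K27M cells was also covered in H3.3K27M cells. Over the whole lists the same shares were 62.6% in H3.3K27M cells and 84.9% in H3.1K27M cells.

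In all 4 shared Iroquois regions the H3.3K27M peak was the wider one, beside 77.7% of the 807 regions with 1 peak of each list. As a log2 ratio, H3.3K27M width over H3.1K27M width came to 0.19 and 0.62 on chromosome 8 and 0.15 and 0.47 on chromosome 13. The median over the 4 regions was 0.33, a ratio of 1.26, and the median over the 807 regions was also 0.33. All 4 lay between the quartiles of the 807, which were 0.05 and 0.66. In both windows the shared region with the wider peaks had the smaller ratio. This rests on 4 regions and was not set against the 807. An edge shift of equal length gives a smaller ratio in a wider peak by construction.

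The extra width lay at both ends in most of the shared regions. The H3.3K27M peak was longer at both edges in 3 of the 4 regions, beside 61.3% of the 807. In the fourth, the first of chromosome 8, the left edges coincided. The H3.1K27M peak lay within the H3.3K27M peak, edges included, in 4 of 4 regions, beside 71.7% of the 807. Median extensions were 0.60 kb on the left and 0.90 kb on the right in the Iroquois regions, and 0.80 kb on each side over the 807. Starts fall on a 200 bp grid throughout both lists, so an extension of 0.40 kb is 2 steps of that grid.

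**Figure D3:**
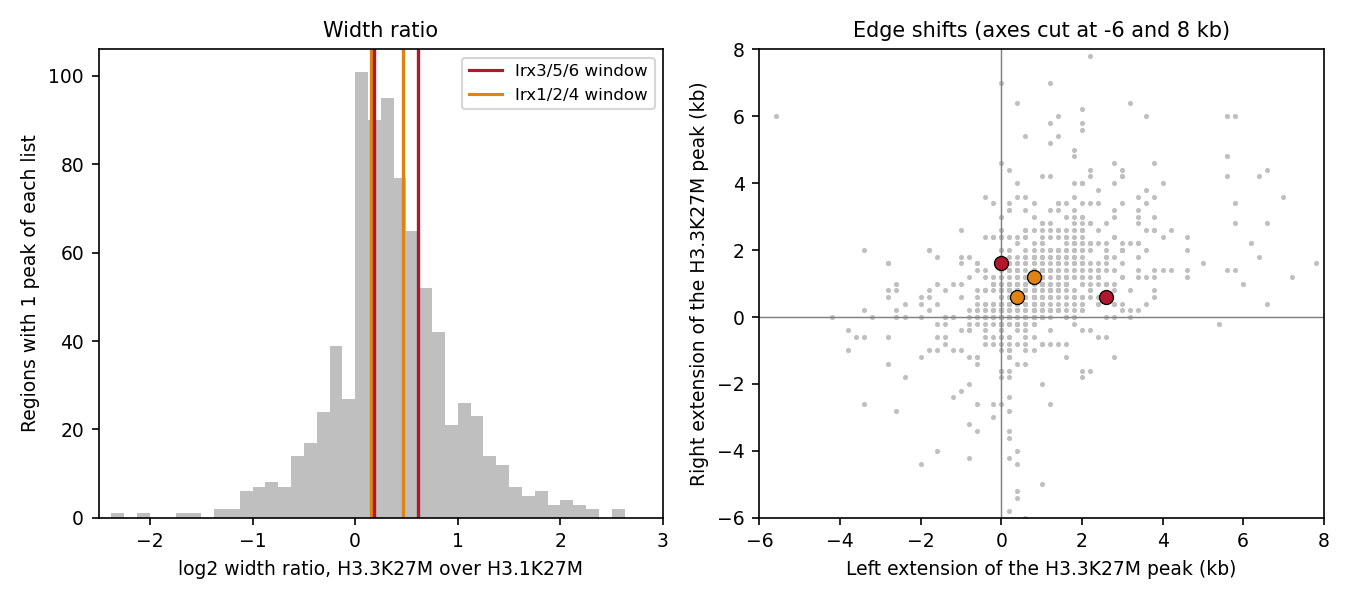
Left, histogram of the log2 width ratio (H3.3K27M over H3.1K27M) over the 807 regions with 1 peak of each list, with vertical lines at the 4 Irx regions. Right, extension of the H3.3K27M peak beyond the H3.1K27M peak at the left and right edges in kb, with the 807 regions in grey (37 lie outside the axes) and the Irx regions in colour. The Irx regions lie between log2 0.15 and 0.62, and none has a negative extension.

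In each list the Iroquois peaks ran from narrow to broad. In H3.3K27M cells widths went from 3.60 to 19.8 kb with a median of 12.8 kb, beside a list median of 7.20 kb. In H3.1K27M cells they went from 2.40 to 17.8 kb with a median of 6.0 kb, beside a list median of 5.6 kb. The broadest, in the first region of chromosome 13, was wider than 88.5% of the H3.3K27M list and wider than 89.0% of the H3.1K27M list. The first region of chromosome 8 exceeded 79.9% of the H3.3K27M list and 80.6% of the H3.1K27M list. In both of these regions the places in the lists differed by less than 1 percentage point. The fourth region of chromosome 8 moved more, with a peak wider than 65.4% of the H3.3K27M list and wider than 53.0% of the H3.1K27M list. The second region of chromosome 13 stood near the narrow end in both, above 11.9% of the H3.3K27M list and 11.6% of the H3.1K27M list. Of the unmatched peaks, the H3.3K27M one exceeded 78.9% of its list and the H3.1K27M one 9.31% of its own.

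**Figure D4:**
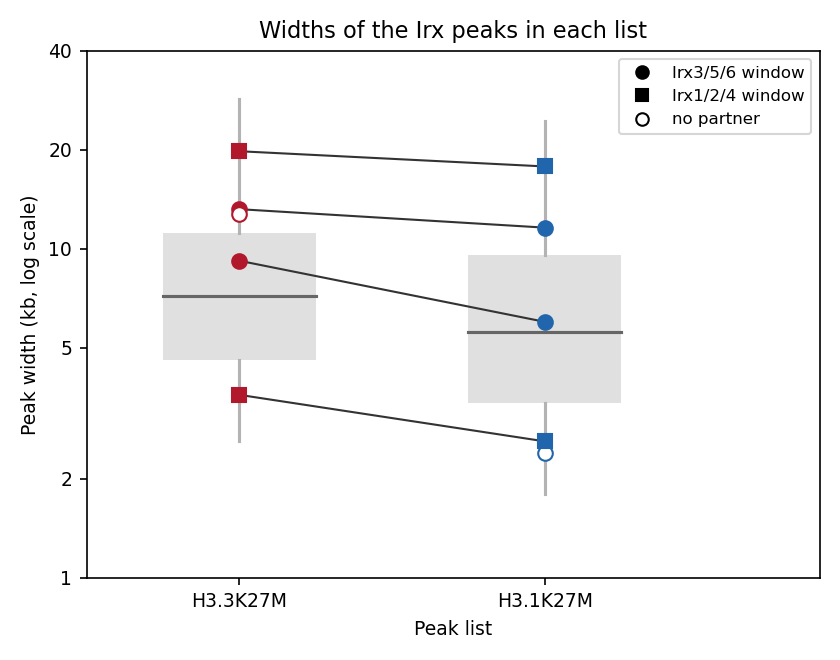
Widths of the Irx peaks in kb on a log axis, with H3.3K27M on the left and H3.1K27M on the right. Lines join overlapping peaks, open symbols have no partner, grey boxes span the quartiles of each whole list with the median as a bar, and whiskers reach the 5th and 95th percentiles. All 4 joined pairs slope down towards H3.1K27M, and the broadest pair is at 19.8 and 17.8 kb.

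The window edges kept few peaks in or out. Closest to an edge on the inside was the second region of chromosome 13, whose H3.3K27M peak ended 24.2 kb and whose H3.1K27M peak ended 24.8 kb before the right edge. Just outside the chromosome 8 window an H3.3K27M peak of 4.4 kb began 182.6 kb past the right edge, at 95482601, while the next H3.1K27M peak began 1.92 Mb past it. Just outside the chromosome 13 window an H3.3K27M peak of 1.80 kb began 282.6 kb past the right edge. On the left of each window the nearest peaks of the lists overlapped each other, 2.63 Mb away on chromosome 8 and 1.92 Mb away on chromosome 13 in both mutants.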

How the data were processed

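H3K27me3 ChIP-seq peak lists of 2 groups of mouse embryonic fibroblasts, H3.3K27M and H3.1K27M, were used. The other samples of the series were not analysed here. The submitters' processing notes name the build mm9, the aligner Bowtie 1.0.0 and deepTools. The peak caller, its threshold, any input correction and any pooling of replicates are not stated in these sources. In the deposited lists the authors give the position, width in bp and running name of each peak, with no score.

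Every peak overlapping the windows by at least 1 bp was taken. Positions are 1-based. Overlapping peaks of both lists formed regions, and width ratios used regions with 1 peak of each list. Shares carry exact (Clopper-Pearson) intervals. Software was Python 3.11.15 (matplotlib 3.10.9, scipy 1.17.1, pandas 2.3.3, numpy 2.4.6), with R 4.3.3 and its package GenomeInfoDb 1.38.1 as the source of chromosome lengths on mm9. The overlap and region steps were tested on simulated data. Gene order and promoter sequences came from RefSeq (GRCm38.p6), and no coordinate was carried between builds. Protein sequences were not used here. Named items were all peaks in the windows, the 6 Irx genes and their neighbours in the table. Members and lists were chosen with earlier results of these data known.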

Additional observations from a re-analysis of the deposited data

How the results depend on the processing

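The peak counts, covered lengths, width percentiles and median log2 width ratio changed by less than 1.5 times, or stayed within counting error, under all settings tried for them. Widening the windows by 200 kb at each side added 1 H3.3K27M peak, which gave 6 peaks and 63.0 kb in H3.3K27M cells and left 5 peaks and 40.4 kb in H3.1K27M cells. The share of H3.3K27M peaks with a partner then was 66.7%. Requiring a reciprocal overlap of 50% left both shares at 80%, beside 58.4% of all H3.3K27M peaks and 66.1% of all H3.1K27M peaks under that rule. With only the peaks that reached the median width of their own list, 4 H3.3K27M peaks and 3 H3.1K27M peaks were left. The share was 75% in H3.3K27M cells (interval 19.4 to 99.4%) and 100% in H3.1K27M cells (interval 29.2 to 100%). The list-wide shares were 84.9% in H3.3K27M cells and 92.5% in H3.1K27M cells. The Iroquois share of H3.3K27M peaks was thus below that of its list under this setting and above it in the report. In both cases the list-wide share lies inside the interval, which at 4 or 5 peaks is too wide to tell the shares apart. Counting a partner within 100 kb, a setting chosen after seeing the data, gave 100% in H3.3K27M cells and 100% in H3.1K27M cells, since by construction it joins the unmatched peaks of chromosome 8. Over the whole lists these shares were 76.4% in H3.3K27M cells and 87.4% in H3.1K27M cells. In bins of 500 kb, 62.5% of the bins of the windows held a peak in each mutant, beside 16.9% of all bins in H3.3K27M cells and 14.3% in H3.1K27M cells, since larger bins hold a peak more often by construction. No paired analysis was possible because a single list stands for each group, which also meant that leaving out a replicate could not be tried. The unknown depth limits every statement on the absence of a peak.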

Other observations

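To the right of both Iroquois windows, which was looked at after the positions were seen, the H3.3K27M list went on where the H3.1K27M list had no peak. Chromosome 13 as a whole held 47 H3.3K27M peaks, of which 63.8% had a partner, and 37 H3.1K27M peaks. Chromosome 8 as a whole held 60 H3.3K27M peaks, of which 78.3% had a partner, and 64 H3.1K27M peaks. Over the whole H3.3K27M list 70.3% of peaks had a partner. On chromosome 13, from the last Iroquois peak of the H3.1K27M list at 73675199 to its next peak, there were 10.2 Mb without an H3.1K27M peak. Within them lay 4 H3.3K27M peaks, 31.2 kb in all and from 1.80 to 18.2 kb wide, the last of which ended at 78326999. Of the 1033 gaps between neighbouring H3.1K27M peaks, 50 (4.84%) were at least as long, and 6 (0.581%) enclosed as many H3.3K27M peaks or more. Of the 50 gaps at least as long, 3 enclosed as many H3.3K27M peaks or more. The H3.3K27M density in the stretch was 0.393 peaks per Mb, somewhat below the 0.452 per Mb of the whole list. On chromosome 8 the H3.1K27M gap past the Iroquois peaks was 2.01 Mb long and enclosed 2 H3.3K27M peaks, 7.0 kb in all. Of the 1033 gaps, 295 (28.6%) were at least as long, and 49 of these enclosed as many H3.3K27M peaks or more. Over gaps of any length the number was 63 (6.10%). The H3.3K27M density in this stretch was 0.993 peaks per Mb. No running number of the H3.1K27M list is unused in either gap.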
